A study of Mus musculus with 6 samples.

Results

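A set of 39 genes of the cell division cycle was examined in mouse liver, 20 that act in G1 and S phase (G1/S) and 19 that act in G2 and mitosis (G2/M). They were chosen by name, with earlier results of these data known. All 39 had a probe, and where a gene had several, the brightest on average over the 6 arrays stood for it. Of the 39, 38 could be tested among 18904 genes tested in all, and 33 of the 38 were well above background on every array. The exception to testing was Cdk2, the S phase kinase, whose probe was well above background on 0 of 3 control arrays and 1 of 3 MC-LR arrays. Ccne2, Cdc6, Aurkb, Bub1b and Kif11 entered the test only through the MC-LR arrays, since each lay well above background there on all 3 and on only 1 or 2 of the 3 control arrays.

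The livers came from male BALB/c mice that were 6 weeks old when exposure began. For 12 months, 3 mice drank water with 100 µg/L microcystin-LR (MC-LR), a cyclic peptide of cyanobacteria that blocks serine/threonine phosphatases, and 3 control mice drank sterile water without it. Per the labels each liver is from a different mouse, and RNA of each went onto a separate Agilent array labelled with 1 dye. Values are quantile normalized log2 signals, and a difference is the MC-LR mean minus the control mean, so that a difference of 1 is a doubling.

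A cell that enters the cycle first makes D and E type cyclins, whose kinases inactivate the RB proteins and free the E2F factors. E2F then switches on the genes of replication origin licensing, DNA synthesis and nucleotide supply, and a later wave led by FOXM1 and the MuvB complex switches on the mitotic genes. Adult hepatocytes are mostly quiescent but can re-enter the cycle after injury or loss of tissue, so these genes serve as the usual readout of proliferation in liver. Much of the G2/M set is carried by the few dividing cells of a tissue, of whichever type. In whole liver, fewer cells of a type and less RNA per cell cannot be told apart.

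The promoters of the 2 sets hold different letters, shown here because the members are grouped by phase below. RefSeq promoters (GRCm38.p6, from 250 bases before to 50 bases after a gene's start) were found for 32 members, 17 of G1/S and 15 of G2/M. The E2F letters searched were TTTCGCGC, TTTGGCGC, TTTCCCGC and TTTGCCGC, on both strands. They were present in 7 of 17 G1/S genes (41.2%) and 1 of 15 G2/M genes (6.67%), against 2.61% of all genes with a promoter. The letters of the cell cycle genes homology region, the MuvB element, were TTTGAA and TTCGAA, and they were found in 3 of 17 G1/S genes (17.6%), 12 of 15 G2/M genes (80%) and 21.7% of all genes. CCAAT, the NF-Y element, occurred in 10 of 17 G1/S genes (58.8%), 13 of 15 G2/M genes (86.7%) and 41.1% of all genes. Motifs of different kinds shared bases in 1 of the 33 member promoters. A match describes these windows only. The promoters of 3 genes with large G1/S differences, of Mcm6 with its paired E2F letters, and of the mitotic genes Cdk1 and Ccnb2 follow, read 5′ to 3′ on the gene's strand with every match in capitals.
Ccne1 (chr7:38107441-38107740, minus strand): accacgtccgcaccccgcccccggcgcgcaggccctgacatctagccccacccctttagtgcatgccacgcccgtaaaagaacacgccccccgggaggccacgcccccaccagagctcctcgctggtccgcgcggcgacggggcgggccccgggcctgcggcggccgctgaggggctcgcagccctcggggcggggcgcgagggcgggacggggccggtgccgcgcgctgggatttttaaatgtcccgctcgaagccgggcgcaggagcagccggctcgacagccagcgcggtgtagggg
Cdc6 (chr11:98907901-98908200, plus strand): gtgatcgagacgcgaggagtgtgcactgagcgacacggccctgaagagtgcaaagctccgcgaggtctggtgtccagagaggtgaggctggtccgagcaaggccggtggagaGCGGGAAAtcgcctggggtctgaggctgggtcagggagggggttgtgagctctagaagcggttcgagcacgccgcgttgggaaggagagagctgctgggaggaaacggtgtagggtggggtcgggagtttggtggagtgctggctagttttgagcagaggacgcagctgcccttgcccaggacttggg
Tk1 (chr11:117825965-117826264, minus strand): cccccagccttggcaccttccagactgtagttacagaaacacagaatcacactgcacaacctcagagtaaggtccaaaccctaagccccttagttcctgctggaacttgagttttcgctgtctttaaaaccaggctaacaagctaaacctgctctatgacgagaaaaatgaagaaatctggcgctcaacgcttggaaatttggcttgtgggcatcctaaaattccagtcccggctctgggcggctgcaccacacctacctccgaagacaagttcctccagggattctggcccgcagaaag
Mcm6 (chr1:128359656-128359955, minus strand): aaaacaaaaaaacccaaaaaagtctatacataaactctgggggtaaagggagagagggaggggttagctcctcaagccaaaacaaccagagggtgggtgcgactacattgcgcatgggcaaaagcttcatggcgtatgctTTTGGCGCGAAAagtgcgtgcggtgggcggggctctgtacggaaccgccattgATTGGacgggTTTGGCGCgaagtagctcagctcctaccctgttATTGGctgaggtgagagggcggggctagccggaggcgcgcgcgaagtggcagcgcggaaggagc
Cdk1 (chr10:69352863-69353162, minus strand): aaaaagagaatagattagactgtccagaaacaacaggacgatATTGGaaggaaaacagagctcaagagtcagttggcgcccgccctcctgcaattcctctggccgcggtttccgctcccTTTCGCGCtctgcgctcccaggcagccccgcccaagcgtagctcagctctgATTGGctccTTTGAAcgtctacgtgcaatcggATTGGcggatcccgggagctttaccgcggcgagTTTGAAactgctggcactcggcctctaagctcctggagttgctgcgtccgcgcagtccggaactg
Ccnb2 (chr9:70421505-70421804, minus strand): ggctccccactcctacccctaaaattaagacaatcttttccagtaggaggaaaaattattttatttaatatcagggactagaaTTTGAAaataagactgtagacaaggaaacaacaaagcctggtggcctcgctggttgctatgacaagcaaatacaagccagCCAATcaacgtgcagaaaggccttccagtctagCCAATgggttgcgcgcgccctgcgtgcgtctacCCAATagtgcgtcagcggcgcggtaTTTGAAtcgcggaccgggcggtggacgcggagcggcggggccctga
The windows of Ccne1 and Tk1 hold none of the letters searched.

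Spots well above background made up 64.9% to 73.7% of an array, and 0 were saturated. Precision is limited by having 3 arrays a group. Slide 1 carried controls 1 and 2, and slide 2 carried control 3 with all 3 MC-LR livers. A fit with slide as a block therefore compares the MC-LR arrays with control 3. With it 9 of 19 G1/S members and 1 of 19 G2/M members lay above 0. As a check of the tissue, all 9 hepatocyte markers with a probe were well above background on all 6 arrays.

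None of the 38 members tested passed an adjusted p of 0.05 (limma, Benjamini-Hochberg over all genes), a threshold that 0.0159% of all genes passed (Lingo4, Cst10 and 2610034B04Rik, named after their values were seen). At an unadjusted p under 0.05, 4 G1/S members were higher in the MC-LR livers and 0 were lower, and 0 G2/M members were called in either direction. Over all genes, 7.5% were higher and 5.36% lower at that p. The 4 were the E cyclins Ccne1 and Ccne2, the licensing factor Cdc6 and thymidine kinase Tk1. The MC-LR arrays lay wholly above the control arrays in 3 members (Ccne2, Cdc6 and Tk1) and wholly below them in 0, against 11.3% of all genes above and 9.23% below. Ccne2 and Cdc6 were well above background on only 1 of 3 controls, so their separation rests on control values mostly below detection. The median difference was 0.15 over the 19 G1/S members, with 14 above 0 and 5 below, and 0.01 over the 19 G2/M members, with 10 above and 9 below. Over all genes it was -0.01, with 48.6% above 0. With slide as a block the G1/S median was -0.07 and the G2/M median -0.39, and Ccne2, Tk1 and E2f8 were the members higher at an unadjusted p under 0.05, a call that 7.97% of all genes then met. The 4 G1/S calls became 2 (Ccne1 and Tk1) where only probes well above background on all 6 arrays were kept, with 6.97% of genes called higher, and 2 (Ccne2 and Tk1) without control 1 or without control 2, with 4.33% and 5.41%. Without control 3, 4 G1/S members (the same as with all arrays) and Birc5 were higher and E2f8 was lower, beside 10.7% of all genes higher and 10.1% lower.

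**Figure D1:**
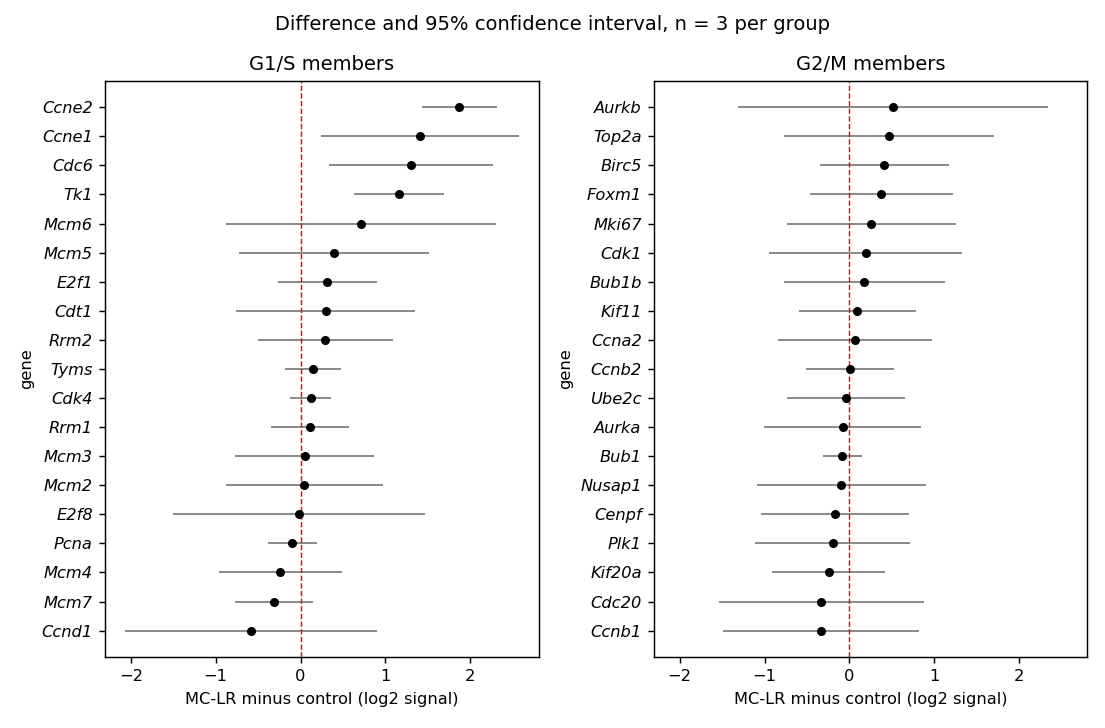
MC-LR minus control difference in log2 signal (horizontal axis) for each member tested, with its 95% confidence interval from limma as a bar, 3 arrays per group. The G1/S panel is headed by Ccne2, Ccne1, Cdc6 and Tk1, whose intervals lie above 0, while every G2/M interval spans 0.

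Cyclin E binds CDK2 and drives entry into S phase. Signal for Ccne2 was 2.89, 3.20 and 3.46 in controls 1 to 3 and 4.97, 5.28 and 4.91 in MC-LR 1 to 3. Every MC-LR array lay above every control array, and the spread within either group was small beside the gap. The difference was 1.87 (SE 0.182, adjusted p = 0.118). The control level is poorly measured, since only control 3 was well above background there. With normexp background correction the difference was 0.33. That setting adds an offset of 50 to every signal, which in itself shrinks differences between dim signals, here and in the genes below. Leaving out control 3 gave an adjusted p of 0.0412, where 0.264% of all genes passed, but no control was then well above background, so that p rests on control values below detection. A probe placed beside it differed by 1.39 in the same direction.

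Signal for Ccne1 was 8.10, 8.20 and 8.72 in the controls and 10.11, 10.47 and 8.68 in the MC-LR livers. MC-LR 1 and 2 were far above the controls, while MC-LR 3 fell within the control range, so the groups overlapped. The difference was 1.41 (SE 0.477, adjusted p = 0.332). Without MC-LR 3 it was 1.94 with an unadjusted p of 0.000482 and an adjusted p of 0.262. Blocking on slide gave 1.03 with an unadjusted p of 0.196 and an adjusted p of 0.51. The other Ccne1 probe, read at the same coordinates in the files (mm9, chr7:38882937-38882960), differed by 0.99 and put the arrays in the same order.

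Thymidine kinase salvages thymidine for DNA synthesis. Tk1 signal stood at 10.38, 10.23 and 10.63 in the controls and at 11.70, 11.15 and 11.88 in the MC-LR livers. The groups did not overlap, and MC-LR 2 was here the lowest of the treated arrays. The difference was 1.16 (SE 0.217, adjusted p = 0.218), and it had an unadjusted p under 0.05 in 16 of 16 settings, with values from 0.95 to 1.38.

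Cdc6 loads the MCM helicase onto replication origins. Its signal read 3.02, 3.03 and 4.13 in the controls and 4.56, 5.26 and 4.26 in the MC-LR livers. Control 3 reached almost the lowest MC-LR array, and it alone among the controls was well above background. The difference was 1.30 (SE 0.394, adjusted p = 0.303). It came to 0.30 with normexp correction and to 0.56 with slide as a block.

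**Figure D2:**
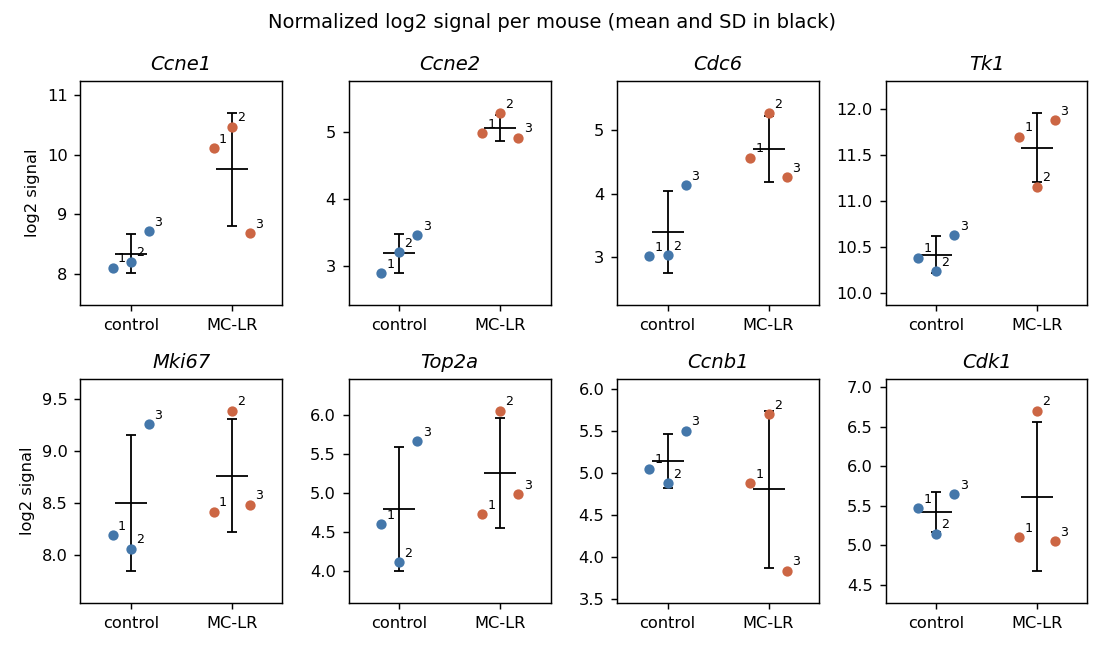
Log2 signal of 8 members on each array (points, numbered by replicate) with the group mean and SD in black. Ccne2, Cdc6 and Tk1 separate the groups, whereas for Mki67, Top2a, Ccnb1 and Cdk1 the MC-LR 2 array is the highest and control 3 is the highest control. Only 1 of 3 controls was well above background for Ccne2 and for Cdc6.

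The D cyclin arm acts ahead of cyclin E. Ccnd1, the cyclin that answers growth signals, read 10.58, 10.95 and 10.04 in the controls and 9.68, 11.24 and 8.90 in the MC-LR livers. The treated arrays included both the highest and the lowest of the 6, and the difference was -0.59 (SE 0.607, adjusted p = 0.713). Without MC-LR 2 it was -1.24 and the adjusted p was 0.361. Cdk4, the kinase partner of cyclin D, read 9.43, 9.30 and 9.30 in the controls and 9.42, 9.57 and 9.40 in the MC-LR livers. Its values were among the tightest of the set, and the difference of 0.12 had a 95% confidence interval from -0.12 to 0.36.

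Of the 2 E2F genes, E2f1 encodes an activator and E2f8 a repressor that is itself an E2F target. E2f1 read 5.61, 5.24 and 5.75 in the controls and 5.64, 6.32 and 5.59 in the MC-LR livers, a difference of 0.32 (SE 0.241, adjusted p = 0.612). Only MC-LR 2 stood above the controls. E2f8 read 6.40, 7.03 and 4.58 in the controls and 6.19, 5.89 and 5.86 in the MC-LR livers. Control 3 was the lowest of the 6 arrays and the other controls were the highest, so the SD was 1.27 among controls and 0.181 among treated mice. The difference was -0.02 (SE 0.608), and it turned on that array: without control 3 it was -0.73 (adjusted p = 0.174), and blocking on slide gave 1.40 (adjusted p = 0.166).

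MCM2 to MCM7 form the helicase that opens the origins. Mcm6 read 9.17, 9.02 and 10.60 in the controls and 10.41, 11.33 and 9.20 in the MC-LR livers. Control 3 and MC-LR 1 and 2 were high, and MC-LR 3 was as low as the first controls. The difference was 0.71 (SE 0.652, adjusted p = 0.677). Blocking on slide turned it to -0.29. Mcm7 read 10.86, 10.71 and 10.75 in the controls and 10.50, 10.79 and 10.10 in the MC-LR livers, where MC-LR 3 was lowest. Its difference was -0.31 (SE 0.188, adjusted p = 0.527).

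Mcm5 read 7.98, 7.82 and 8.72 in the controls and 8.46, 9.45 and 7.79 in the MC-LR livers, a difference of 0.39. Mcm2 read 7.89, 7.68 and 8.23 in the controls and 7.85, 8.77 and 7.31 in the MC-LR livers, a difference of 0.04. In both genes MC-LR 2 was the highest array and MC-LR 3 the lowest, and the groups overlapped. Mcm3 and Mcm4 differed by 0.05 and -0.24, and Mcm3 by -0.21 when slide was blocked. Cdt1, which loads the helicase together with Cdc6, differed by 0.30 (SE 0.433).

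Among the genes of DNA synthesis, Pcna, the sliding clamp of the polymerases, read 11.67, 11.60 and 11.72 in the controls and 11.50, 11.76 and 11.44 in the MC-LR livers. The groups overlapped and the difference was -0.10, with a 95% confidence interval from -0.39 to 0.19. Rrm2, the small subunit of ribonucleotide reductase, read 5.59, 5.21 and 6.01 in the controls and 5.73, 6.50 and 5.46 in the MC-LR livers, a difference of 0.29 (SE 0.326). MC-LR 2 and control 3 were its highest arrays. Its partner Rrm1 differed by 0.11, or by -0.07 when slide was blocked.

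Thymidylate synthase, encoded by Tyms, makes thymidylate anew where Tk1 salvages it. Tyms read 10.35, 10.44 and 10.26 in the controls and 10.59, 10.64 and 10.26 in the MC-LR livers. MC-LR 1 and 2 lay above the controls and MC-LR 3 lay level with the lowest, and the difference was 0.15 (SE 0.134, adjusted p = 0.68). A further Tyms probe ordered the arrays differently, although its difference was 0.16.

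In the G2/M set the smallest adjusted p was 0.612, for Birc5. Survivin, its product, is a subunit of the chromosomal passenger complex together with Aurora B. Birc5 read 9.29, 9.34 and 10.14 in the controls and 9.71, 10.49 and 9.80 in the MC-LR livers, a difference of 0.41 (SE 0.311). All MC-LR arrays lay above controls 1 and 2 but only MC-LR 2 lay above control 3. Without control 3 the difference was 0.68 with an unadjusted p of 0.0455 and an adjusted p of 0.232, and blocking on slide gave -0.14. Aurkb read 3.18, 2.77 and 5.17 in the controls and 3.75, 5.29 and 3.62 in the MC-LR livers. Control 3, the only control well above background, and MC-LR 2 stood far above the other arrays, and the difference was 0.51 (SE 0.75), or -0.95 with slide as a block.

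Ki-67, the product of Mki67, coats mitotic chromosomes and is the usual stain for cycling cells. Mki67 read 8.19, 8.06 and 9.25 in the controls and 8.41, 9.38 and 8.48 in the MC-LR livers. The highest array of each group stood well apart from its fellows, and these arrays, control 3 and MC-LR 2, were close to each other. The difference was 0.26 with a 95% confidence interval from -0.74 to 1.25, and it was -0.49 with slide as a block. Top2a, the topoisomerase that untangles sister chromatids, read 4.60, 4.11 and 5.67 in the controls and 4.73, 6.06 and 4.99 in the MC-LR livers. The same arrays were highest, and the difference was 0.46 (SE 0.506).

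CDK1 with cyclin A2, B1 or B2 forms the mitotic kinases. Cdk1 read 5.47, 5.14 and 5.65 in the controls and 5.10, 6.70 and 5.05 in the MC-LR livers. MC-LR 2 was above all controls and the other treated arrays were below them, and the difference was 0.20 (SE 0.466). Ccna2 read 7.20, 6.99 and 7.84 in the controls and 7.07, 8.14 and 7.02 in the MC-LR livers, a difference of 0.07 (SE 0.371). Control 3 and MC-LR 2 were again its highest arrays.

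For Ccnb1 the signals were 5.05, 4.88 and 5.51 in the controls and 4.88, 5.71 and 3.84 in the MC-LR livers. The treated arrays held both the highest and the lowest value, and the difference was -0.34 (SE 0.472). Another Ccnb1 probe that passed the filter differed by 0.22. For Ccnb2 the signals were 9.47, 9.49 and 9.26 in the controls and 9.34, 9.84 and 9.06 in the MC-LR livers. The spread was narrower there, MC-LR 2 was again the highest, and the difference was 0.01 with a 95% confidence interval from -0.51 to 0.53.

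FOXM1 is the transcription factor of the mitotic wave and PLK1 a kinase of mitotic entry and spindle assembly. Foxm1 read 5.74, 5.63 and 6.45 in the controls and 6.25, 6.90 and 5.80 in the MC-LR livers, a difference of 0.38 (SE 0.343). Plk1 read 7.71, 7.40 and 8.03 in the controls and 7.42, 8.27 and 6.85 in the MC-LR livers, a difference of -0.20 (SE 0.375). MC-LR 2 was the highest array in both genes, and the groups overlapped.

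Cdc20 activates the anaphase promoting complex. It read 9.12, 8.78 and 8.96 in the controls and 8.79, 9.55 and 7.52 in the MC-LR livers, so MC-LR 3 stood far below the other arrays, and the difference was -0.33 (SE 0.496). Kif20a, a kinesin of cytokinesis, read 8.08, 7.94 and 8.10 in the controls and 7.78, 8.35 and 7.26 in the MC-LR livers, a difference of -0.25 (SE 0.273). Cenpf, a kinetochore protein, read 5.74, 5.36 and 5.93 in the controls and 5.06, 6.29 and 5.18 in the MC-LR livers, a difference of -0.17 (SE 0.355). In all 3 genes MC-LR 2 was the highest and another MC-LR array the lowest. Without MC-LR 2, Kif20a and Cenpf had unadjusted p of 0.04 and 0.0388, both lower in the MC-LR livers, and adjusted p of 0.417 and 0.416.

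Bub1, a kinase of the spindle checkpoint, had 2 probes that disagreed. The probe with the higher mean (mm9, chr2:127626326-127626385) read 10.18, 10.24 and 10.11 in the controls and 10.04, 10.07 and 10.16 in the MC-LR livers, a range of 0.19. The other probe (mm9, chr2:127626988-127627047) read 3.59, 3.69 and 4.94 in the controls and 3.72, 5.09 and 4.22 in the MC-LR livers. The first was flat, whereas the second was highest in control 3 and MC-LR 2 as most G2/M members were, although only 1 of 3 controls was well above background there. The differences were -0.08 and 0.27. Members had 11 further probes that passed the filter, and the sign of the difference matched in 9.

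The remaining G2/M members had differences from -0.10 to 0.18. Bub1b, the checkpoint partner of Bub1, differed by 0.18 and the spindle kinesin gene Kif11 by 0.09, and when slide was blocked these were -0.39 and -0.32. Ube2c, the ubiquitin carrier of the anaphase promoting complex, differed by -0.04. Aurka, a centrosomal kinase gene, differed by -0.08, and Nusap1, which codes for a spindle protein, by -0.10. Each of the 5 had its highest control value in control 3 and its highest MC-LR value in MC-LR 2.

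**Figure D3:**
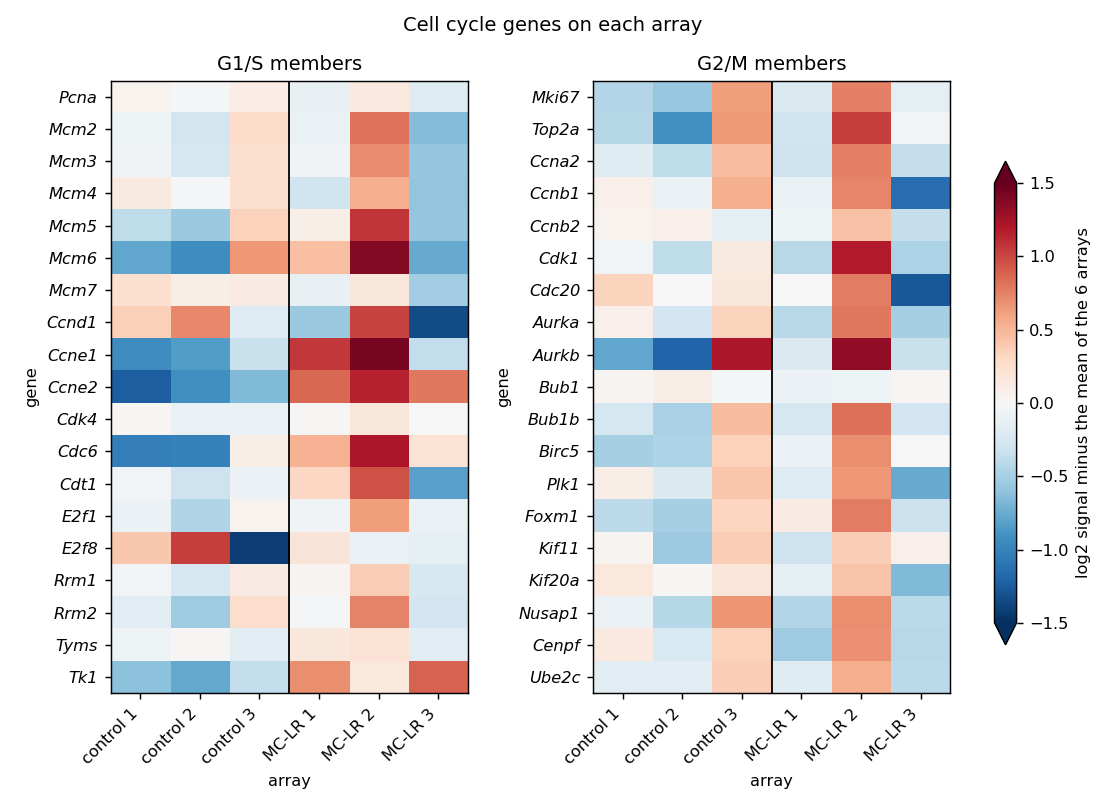
Log2 signal of each member tested minus that gene's mean over the 6 arrays (colour), one row per gene and one column per array, with the colour scale ending at 1.5 in either direction. The MC-LR 2 column is the highest in 34 of 38 rows, and control 3 is the highest control in 29.

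The members varied widely between arrays of a group. The median SD of a member was 0.308 among controls and 0.571 among MC-LR livers, against 0.185 and 0.163 over all genes. MC-LR 2 held the highest value of the 6 arrays in 34 of 38 members (89.5%), 16 of 19 in G1/S and 18 of 19 in G2/M, while it did so in 11.3% of the 18893 genes tested with a value on all 6 arrays. Control 3 was the highest control in 29 of 38 (76.3%), against 39.3% of all genes. It was the only control on slide 2, so mouse and slide cannot be told apart in its distance from the other controls. MC-LR 3 was the lowest MC-LR array in 30 of 38 (78.9%), against 36.2% of all genes. This order was seen in the values and is given as a description with no test.

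The median deviation of the G2/M members from their 6-array mean was -0.05, -0.38 and 0.36 in controls 1 to 3 and -0.22, 0.73 and -0.36 in MC-LR 1 to 3. For the G1/S members it was -0.07, -0.27 and 0.09 in the controls and 0.04, 0.71 and -0.29 in the MC-LR livers. Both sets were highest in MC-LR 2, and the all-gene median stayed within 0.02 of 0 on every array. Without MC-LR 2 the median difference was -0.30 over the G2/M members and -0.01 over the G1/S members, and the unadjusted p fell under 0.05 for 3 G1/S members (Mcm4, Mcm7 and Ccnd1) and 2 G2/M members (Kif20a and Cenpf), lower in the MC-LR livers as 4.6% of all genes then were, and for 3 G1/S members (Ccne2, Cdc6 and Tk1) higher as 6.72% of all genes were. Without control 3 the medians were 0.21 and 0.20. With slide as a block 18 of 19 G2/M members lay below 0, where the all-gene median was 0.02. That fit compares the MC-LR arrays with control 3 alone, the highest control in 16 of 19 G2/M members. The count therefore largely restates the height of that array.

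Markers of some other cell types also varied between these arrays, where control 3 again differs from the other controls in slide as well as in mouse. Of 7 neutrophil markers, 6 had a probe and 5 were well above background on all 6 arrays. Their median deviation was -0.48, 0.03 and 0.95 in controls 1 to 3 and -0.76, 0.85 and -1.09 in MC-LR 1 to 3. Control 3 and MC-LR 2 were each the highest array of their group in 5 of 5, against 39.3% and 31.5% of all genes. The linear signals of the neutrophil probes summed to between 7689 and 12979 in the controls and between 3407 and 9622 in the MC-LR livers. Elane, a granule protease gene of immature neutrophils, was well above background on 1 array of each group. Cholangiocyte markers, with 4 of 5 well above background on all 6 arrays and Cftr well above it on 0, had a median deviation of 0.72 in control 3 and 0.69 in MC-LR 2, the highest of their groups, and summed to between 762 and 1214 in the controls and between 698 and 951 in the MC-LR livers. All 8 Kupffer cell markers were well above background on all 6 arrays and summed to 44673 to 73211 in the controls and 32238 to 51917 in the MC-LR livers. Control 3 was the highest control in 7 of these 8, while MC-LR 2 was the highest treated array in 3 of 8, against 31.5% of all genes. All 10 lymphocyte markers were well above background too, with sums of 2113 to 4697 in the controls and 1967 to 3370 in the MC-LR livers, and control 3 was the highest control in 7 of 10 and MC-LR 2 the highest treated array in 4 of 10. All 6 stellate cell markers were measured on every array, with sums of 6910 to 8386 in the controls and 5482 to 7187 in the MC-LR livers, and control 3 was the highest control in 5 of 6 and MC-LR 2 the highest treated array in 4 of 6. Endothelial markers had another order, with the highest value in control 1 in 5 of 7. Among the 4 erythroid markers tested, control 3 was the highest control in 1 and MC-LR 2 the highest treated array in 0. Among the 9 hepatocyte markers these counts were 4 and 1. The part of these cells in the order of the cell cycle genes was not tested.

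**Figure D4:**
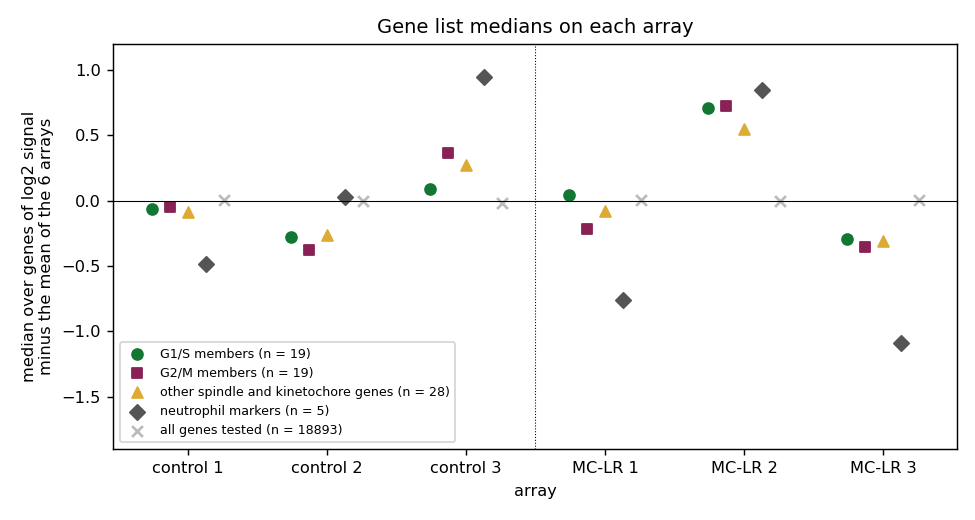
Median over genes of log2 signal minus the gene's mean over the 6 arrays (vertical axis) for each array, by gene list. The 2 member sets, the 28 other spindle and kinetochore genes and the 5 neutrophil markers are highest in MC-LR 2 or control 3, while all genes tested lie near 0. Of the cell type lists only the neutrophil markers are drawn, and some of the others had another order.

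Other genes of the cycle were read from lists of known function, also chosen with earlier results of these data known. None of the genes on these lists passed the adjusted threshold. Of 31 further genes of the replication machinery tested, 3 (9.68%) were higher and 0 lower at an unadjusted p under 0.05. Of all genes, 7.5% were higher and 5.36% lower at that p. The median difference of the 31 was 0.08. Gmnn, which encodes geminin, the inhibitor of Cdt1, read 10.89, 11.01 and 11.32 in the controls and 12.20, 12.04 and 11.61 in the MC-LR livers. The groups did not overlap, and the difference was 0.88 (SE 0.196, adjusted p = 0.247). Mcm10, an initiation factor, read 12.84, 13.50 and 12.49 in the controls and 14.61, 14.30 and 13.67 in the MC-LR livers. MC-LR 3 came close to control 2 without reaching it, and the difference was 1.25 (SE 0.339, adjusted p = 0.278). This signal was brighter than that of any member, of which the highest mean was 11.62. Whether the probe reads Mcm10 mRNA alone was not tested. Cdc45, a helicase cofactor, differed by 0.98 (SE 0.396, adjusted p = 0.386) with overlapping groups and 1 of 3 controls well above background.

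The median over 28 further spindle and kinetochore genes tested was 0.05, and another 8 of the 36 on this list were too dim to test. At an unadjusted p under 0.05, 2 were higher (7.14%, against 7.5% of all genes) and 0 lower (against 5.36%). Both encode subunits of the NDC80 complex, which ties kinetochores to microtubules. Of its other subunit genes, Ndc80 was not tested, being well above background on 1 control and 2 MC-LR arrays, and Nuf2 was not called. Spc24 read 7.89, 7.73 and 8.04 in the controls and 8.97, 8.78 and 9.08 in the MC-LR livers. Each group was tight and they did not overlap, and the difference was 1.05 (SE 0.131, adjusted p = 0.156), with values from 0.84 to 1.13 and an unadjusted p under 0.05 in 16 of 16 settings. Spc25 read 7.40, 7.90 and 7.23 in the controls and 7.97, 8.33 and 7.99 in the MC-LR livers, a difference of 0.59 (SE 0.208, adjusted p = 0.346). Control 2 came within a small step of the lowest MC-LR array. In Spc24, MC-LR 2 was the lowest of the treated arrays, unlike in 21 of the 28 genes of this list, where it was the highest of all 6. Ncapd2, a condensin subunit gene, differed by 0.40 (SE 0.163, adjusted p = 0.388).

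The inhibitors of the cyclin dependent kinases had a median difference of -0.03 over 8 genes. At an unadjusted p under 0.05, where 7.5% of all genes were higher and 5.36% lower, 0 were higher and 1 was lower. That gene was Cdkn1a, which encodes p21, an inhibitor of CDK2 that also answers p53. It read 11.48, 11.02 and 10.49 in the controls and 8.56, 9.55 and 9.14 in the MC-LR livers. All MC-LR arrays lay below all controls, and control 3 was the lowest control. The difference was -1.91 (SE 0.342, adjusted p = 0.211), and it lay between -2.17 and -1.40 with an unadjusted p under 0.05 in 16 of 16 settings. Cdkn2d, an inhibitor of CDK4 and CDK6, differed by 0.55 (adjusted p = 0.393) and Cdkn1b, which encodes p27, by 0.23 (adjusted p = 0.443).

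Among 16 other cyclins and kinases tested, 1 (6.25%) was higher and 1 lower at an unadjusted p under 0.05, with a median of -0.08. The shares of all genes at that p were 7.5% higher and 5.36% lower. Wee1, the kinase that holds CDK1 inactive and also a known output of the circadian clock, read 1.13, 1.17 and 2.87 in the controls and 5.71, 5.39 and 5.46 in the MC-LR livers. It was well above background on 0 of 3 control arrays and 3 of 3 MC-LR arrays. It thus entered the test only through the MC-LR arrays, and its difference is given as a bound. Measured against a floor for the controls, signal was at least 4.24-fold higher in the MC-LR livers. On each control array the floor was the lowest signal well above background of any probe, or the probe's own if higher. It is not a detection limit of this probe. The fit to the values themselves had an adjusted p of 0.156 (limma), which does not belong to the bound and rests on control values below detection. With normexp correction the fitted log2 difference was 0.55. The adjusted p was 0.035 when slide was blocked, 0.168 on slide 2 alone, 0.426 with the replicate block and 0.00213 without control 3, and all of these rest on control values below detection. The 14 clock genes had a median difference of 1.13, with 8 higher and 2 lower at an unadjusted p under 0.05, and their part in the Wee1 values was not tested. Cdc25a, the phosphatase that activates CDK2, read 8.38, 8.09 and 8.08 in the controls and 7.40, 7.75 and 7.63 in the MC-LR livers, a difference of -0.59 (SE 0.142, adjusted p = 0.259) with no overlap. Mnat1, a subunit gene of the CDK activating kinase, differed by -0.17 (adjusted p = 0.569).

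The 16 genes of the E2F, RB and DREAM group had a median of 0.07, with 1 (6.25%) higher and 1 lower at an unadjusted p under 0.05. At that p 7.5% of all genes were higher and 5.36% lower. E2f2, an activator like E2f1, read 9.43, 9.39 and 9.45 in the controls and 9.13, 8.91 and 8.99 in the MC-LR livers, a difference of -0.41 (SE 0.0989, adjusted p = 0.259). The groups did not overlap. Lin52, a MuvB subunit gene, differed by 0.33 (adjusted p = 0.364) and the pocket protein gene Rbl2 by 0.24 (adjusted p = 0.452). The 15 genes of the anaphase promoting complex had a median of -0.11, with 12 below 0 and, at an unadjusted p under 0.05, 0 higher and 2 lower. These were the subunit genes Anapc10, at -0.29 (adjusted p = 0.362), and Cdc23, at -0.33 (adjusted p = 0.386). Cdc27 differed by 0.16 (adjusted p = 0.597), or by -0.0024 when slide was blocked.

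**Figure D5:**
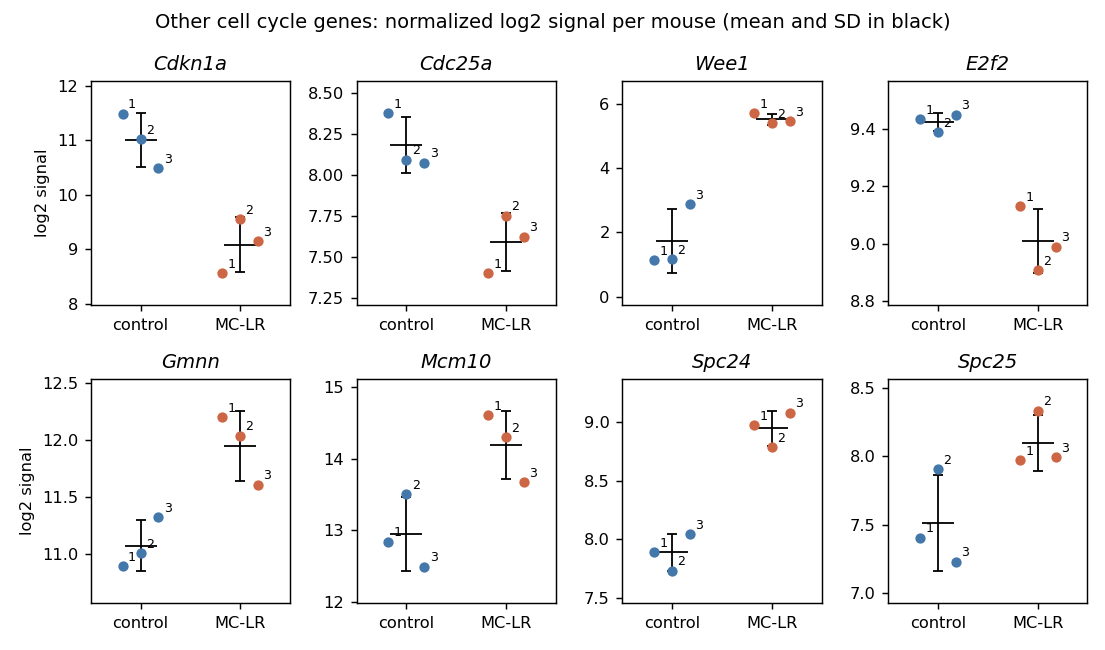
Log2 signal of 8 cell cycle genes outside the member sets on each array (points, numbered by replicate), with the group mean and SD in black. Cdkn1a, Cdc25a and E2f2 lie lower and Wee1, Gmnn, Mcm10, Spc24 and Spc25 higher on every MC-LR array, and none passed the adjusted threshold. These 8 were picked by the small p they had in their lists. Of all genes, 11.3% lay wholly above the controls and 9.23% wholly below. Wee1 was well above background on 0 of 3 control arrays.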

How the data were processed

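Liver RNA of 3 control and 3 MC-LR mice was measured on Agilent single-colour arrays, with groups and replicate numbers taken from the sample titles. Spot intensity in the deposited scanner files was extracted with Agilent Feature Extraction 10.7 (named in the submitters' processing notes), and the processed intensity had its background subtracted, per the file headers. A deposited table of log2 values was quantile normalized by the authors, per the series' design text. Its columns correlated at 0.998 or more with log2 of their own array's processed signal and each had a median of 5.94, so a higher value means more signal, and its member differences lay within 0.00143 of those given here.

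Processed signals under 1 were set to 1, spots with outlier flags were left out, log2 was taken, spots of the same probe were averaged, and quantile normalization ran over the 41174 non-control probes, of which 30 lacked a value somewhere. Kept probes were well above background on all 3 arrays of a group (28500 probes), and a gene was its probe with the highest mean (18904 genes). Probes were named by RefSeq accession (27668), by symbol or synonym (6060) or as in the files (7446). Coordinates of probes are mm9, per the file headers, and promoters are RefSeq's for GRCm38.p6. The comparison used limma 3.58.1 (R 4.3.3) with a two-sided moderated test on 4 residual and 2.05 prior degrees of freedom, adjusted by Benjamini-Hochberg over all genes. The steps were tested on simulated data. Where a probe was well above background on no array of a group, the difference is a bound on means of normalized log2 values.

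The members and the other gene lists were chosen with earlier results of these data known. Values on each array are given for 17 members picked by name and for up to 6 others of each phase with the smallest p, and elsewhere for the 3 genes of a list with the smallest p. Alternatives were another scaling, normexp background correction (offset 50), the deposited values, other filters, the mean of a gene's probes, slide or replicate number as a block, slide 2 alone, another variance model, and each array left out in turn.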

Additional observations from a re-analysis of the deposited data

How the results depend on the processing

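With 3 arrays a group, no difference of a member could be told from the spread between arrays after adjustment. For genes near background (Ccne2, Cdc6, Aurkb) the difference was smaller with normexp correction. Its offset of 50 shrinks such differences in itself, so the part of the background estimate cannot be told apart. The count of all genes past the adjusted threshold was 3 as reported, 1 with 75th percentile scaling, normexp correction or the strict filter, 5 with no filter, 15 with slide as a block and 0 on slide 2 alone, and it ranged from 1 to 50 when an array was left out, the 50 without control 3. The count of members past it was 0 in each of these settings except without control 3, where it was 1 (Ccne2, with no control then well above background), a range of 0 to 1. G1/S members at an unadjusted p under 0.05 numbered 4 as reported, all higher, and 2 with the strict filter, which drops Ccne2 and Cdc6. With an array left out they numbered 2 to 6 in either direction, 2 without control 1 or control 2. Without MC-LR 2 the 6 were 3 higher and 3 lower, and without control 3 there were 4 higher and 1 lower. G2/M members at that p numbered 0 as reported and 0 to 2 with an array left out, with 2 lower without MC-LR 2 and 1 higher without control 3. Of all genes, 7.5% were higher and 5.36% lower at that p as reported. With an array left out these shares were 4.27% to 10.7% and 2.83% to 10.1%. The G1/S median ranged from -0.01 to 0.38 and the G2/M median from -0.30 to 0.21 in the same settings.

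Directions of many small differences turned. With slide as a block, and equally on slide 2 alone, the difference was -0.95 for Aurkb, -0.14 for Birc5, -0.43 for Ccna2, -0.032 for Cdk1, 1.40 for E2f8, -0.13 for Foxm1, -0.25 for Mcm2, -0.15 for Mcm5, -0.29 for Mcm6, -0.49 for Mki67, -0.12 for Rrm2 and -0.41 for Top2a. Each rests on control 3 alone as control. With the mean of a gene's probes Bub1 was at 0.10, and with normexp correction Ccnb2 was at -0.029 and Cenpf at 0.016. Leaving out each array in turn gave -0.021 to 1.25 for Aurkb, -0.30 to 0.31 for Ccna2, -0.79 to 0.15 for Ccnb1, -0.21 to 0.19 for Ccnb2, -0.80 to 0.22 for Cdc20, -0.35 to 0.48 for Cdk1, -0.56 to 0.055 for Cenpf, -0.73 to 0.49 for E2f8, -0.52 to 0.025 for Kif20a, -0.35 to 0.38 for Mcm2, -0.046 to 0.78 for Mcm5, -0.055 to 0.63 for Mki67, -0.57 to 0.13 for Plk1 and -0.011 to 0.51 for Rrm2. Beyond the slide, probe and background settings named, the cause was not tested.

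Deviations of arrays with the same replicate number correlated at 0.186, -0.324 and -0.197, which gave no sign that the numbers pair the mice. With deviations taken from means of 3 arrays, this check cannot exclude a pairing. With the replicate block, 0 genes passed the adjusted threshold. Ccne2, Cdc6 and Tk1 (3 members) then had an unadjusted p under 0.05, all higher, as 5.72% of all genes were.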

Other observations

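Signals that set hepatocyte growth were read from a further list. None of its 22 genes tested passed the adjusted threshold of limma, and the median difference was -0.05. At an unadjusted p under 0.05, 3 were higher (13.6%, against 7.5% of all genes) and 1 lower (against 5.36%). Ereg, the growth factor epiregulin, read 2.44, 3.14 and 3.26 in the controls and 4.22, 4.11 and 4.25 in the MC-LR livers. The groups did not overlap, and the difference was 1.24 (SE 0.226, adjusted p = 0.213). Only 1 of 3 controls was well above background, and with normexp correction the difference was 0.16. Axin2, a feedback target of Wnt signalling, read 6.74, 6.61 and 6.26 in the controls and 7.11, 7.01 and 7.12 in the MC-LR livers, a difference of 0.54 (SE 0.145, adjusted p = 0.276). Tob1, an antiproliferative gene, differed by 0.33 (SE 0.0943, adjusted p = 0.295). Its relative Btg2, the gene that was lower and is named after its value was seen, differed by -0.65 (SE 0.207, adjusted p = 0.314). The groups did not overlap in these genes, which were picked by their small p. Of all genes, 11.3% lay wholly above the controls and 9.23% wholly below.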
